A study of Mus musculus with 24 samples.

Results

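The change of the LPS response between 1 and 4 h was examined in RAW264.7 cells, a macrophage-like line established from a mouse tumor. It was taken for each gene as the difference of differences, LPS minus untreated at 4 h less LPS minus untreated at 1 h, on the log2 scale. A positive change is a response that was higher at 4 h than at 1 h, and a negative change one that was lower. The contrast used 8 of the 24 arrays of the series, in 4 groups of 2 arrays, and it was computed for 8622 detected genes. The LPS groups received 100 ng/mL LPS from Salmonella minnesota R595 for 1 or 4 h, and the untreated groups were left without ligand for 1 or 4 h. All groups are the same wild-type line, so they show 1 transformed cell line and not primary macrophages. LPS and untreated arrays at 2 h, which the contrast did not use, show the course in between, and arrays of cells given 1 μM P3C, a synthetic lipopeptide (Pam3CSK4), or 1 μM R848, an imidazoquinoline (resiquimod), for 1 or 4 h were used to test where the change with LPS differed. The 2 arrays of a group are described in the methods as duplicate biological samples.

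LPS is a lipid of the Gram-negative outer membrane that macrophages sense through TLR4 with CD14 and MD-2. The receptor signals from the plasma membrane through MyD88 and from endosomes through TRIF, and both branches activate NF-κB, while TRIF also activates IRF3 and thereby type I interferon, which acts back on the cells through its own receptor. P3C is sensed by TLR2 with TLR1, and R848 by TLR7 in the mouse, and both signal through MyD88. The transcripts induced by TLR4 are commonly divided into immediate-early genes, which need no new protein, and later genes, many of which wait for chromatin remodeling, new transcription factors or secreted interferon.

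The arrays measured RNA from whole cultures, so that fewer responding cells and less RNA per cell cannot be told apart. The median signal of the 8 arrays was 102.6 to 112.7 before normalization, and 12487 to 13830 of 45281 probes were detected on an array (detection p below 0.01). Replicate arrays of a group correlated at 0.987 to 0.994 over the 8622 tested genes, each given by its brightest probe. Of 9 macrophage markers with a probe, 7 were detected on all 8 arrays and Mrc1 on none, and of 13 markers of T cells, B cells, neutrophils, fibroblasts, epithelium and endothelium with a probe, 0 were detected on all 8 arrays and 12 on none, with Krt8 detected on 2. Signals are given as log2 of the quantile-normalized intensity. LPS arrays never shared a slide with untreated arrays of the same time, and the contrast could not be formed within a slide. Calls are genes with a limma adjusted p below 0.05, from 1 model of all 24 arrays.

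The response at 4 h was higher than at 1 h for 478 genes (5.54% of those tested) and lower for 386 (4.48%), and the change exceeded 2-fold for 224 and 78 of them. Without adjustment, 1849 genes had a p under 0.05. The median change over all genes was −0.04 on the log2 scale and the median SE of a change was 0.177. Between untreated cells at 4 and 1 h, 6 genes were called, 3 of them among the 864 called changes. For 24 of the 864 the untreated arrays moved more than the LPS arrays. Scaling each array by its median in place of quantile normalization moved the median change of all genes to −0.40 and gave 117 higher and 262 lower genes, so the balance of higher and lower genes rests on the normalization and changes are relative to the bulk of the genes.

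The changes were sorted by the response at each time. After 1 h, 181 genes were higher with LPS (2.1%) and 122 lower (1.41%). The counts were 476 (5.52%) and 546 (6.33%) after 2 h, and 934 (10.8%) and 1377 (16%) after 4 h. Of the 181 early rises, 41 faded, in that the change was called lower, and 39 grew, in that it was called higher. A further 69 held, in that no change was called and its 95% interval lay within 1 log2 unit of 0 on either side. For the other 32 the interval was wider and the course was not resolved. Of the 69 that held, 56 were still called higher at 4 h and 13 were not called. Their median response at 1 h, 0.66, was smaller than the margin of 1 log2 unit. A small response could therefore be lost by 4 h and still be placed in this class. Of the 122 early falls, 8 recovered, 18 grew, 92 held and 4 were not resolved. Late rises, not called at 1 h but called at 4 h with a called change, numbered 425, and late falls 318. Another 369 rises and 965 falls were called at 4 h alone with no called change, and are counted in none of these classes. Single arrays moved some counts. The rises that grew numbered 18 without untreated 1 h array A and 18 without B, and 24 and 23 without LPS 1 h arrays A and B. The rises that held numbered 44 without LPS 1 h array A, and 42 and 41 without untreated 1 h arrays A and B. The late falls numbered 210 without LPS 4 h array A, and the recovered falls 5 without LPS 1 h array A and 4 without untreated 1 h array B.

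**Figure D1:**
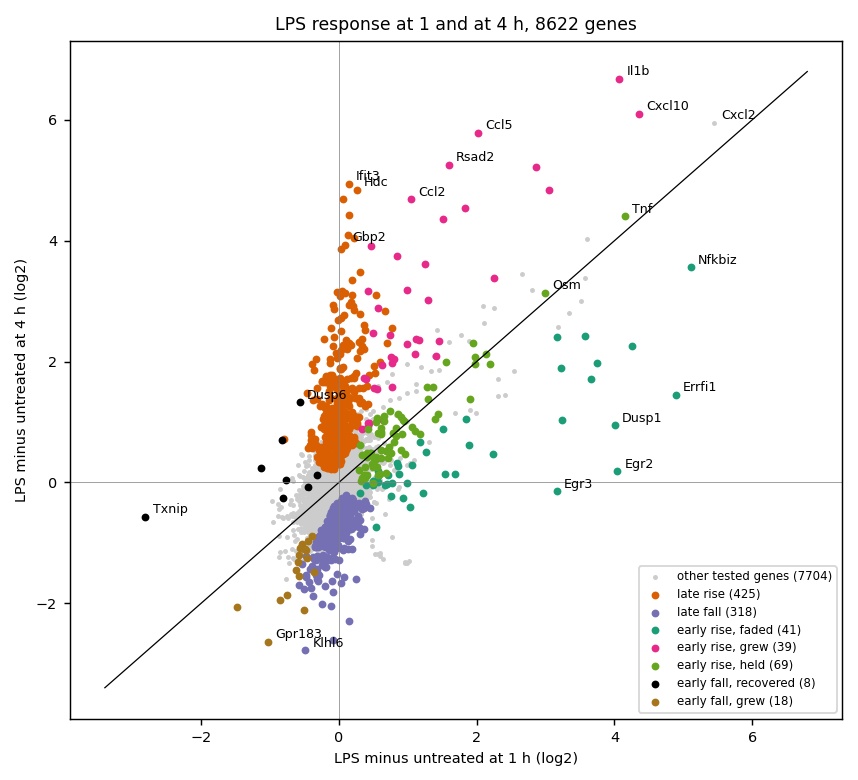
Difference between LPS and untreated cells at 1 h (x axis, log2) against that at 4 h (y axis, log2) for 8622 genes, each point a gene and the mean of 2 arrays per group, with the line of equal response. The 41 faded rises lie below the line on the right, the 425 late rises lie above 0 on the y axis near 0 on the x axis, and Tnf lies close to the line.

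The differences at 2 h did not set the classes, although the 2 h arrays entered the filter, the normalization and the spread of the model. For 29 of the 41 faded rises, 34 of the 39 that grew, 361 late rises and 295 late falls the 2 h value lay between the values at 1 and 4 h. Since these classes require a called difference between 1 and 4 h, such an order is partly built in. It also held for 2073 of 6227 genes with no call at either time or of the change. Among genes called at 4 h alone with no called change, it held for 593 of 965 falls and 188 of 369 rises. The faded genes had median responses of 1.18, 0.70 and 0.18 at 1, 2 and 4 h, and the response at 2 h was below that at 1 h for 36 of the 41. At 2 h 27 of them were still called higher, and at 4 h 17 were, 23 were not called and 1 was lower. All 39 genes whose rise grew were called higher at 2 h, with medians of 0.84, 1.84 and 2.38. The late rises had medians of −0.0022, 0.24 and 0.91, and 152 of 425 were already called higher at 2 h. The late falls had medians of −0.03, −0.31 and −0.72, and 151 of 318 were called lower at 2 h.

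**Figure D2:**
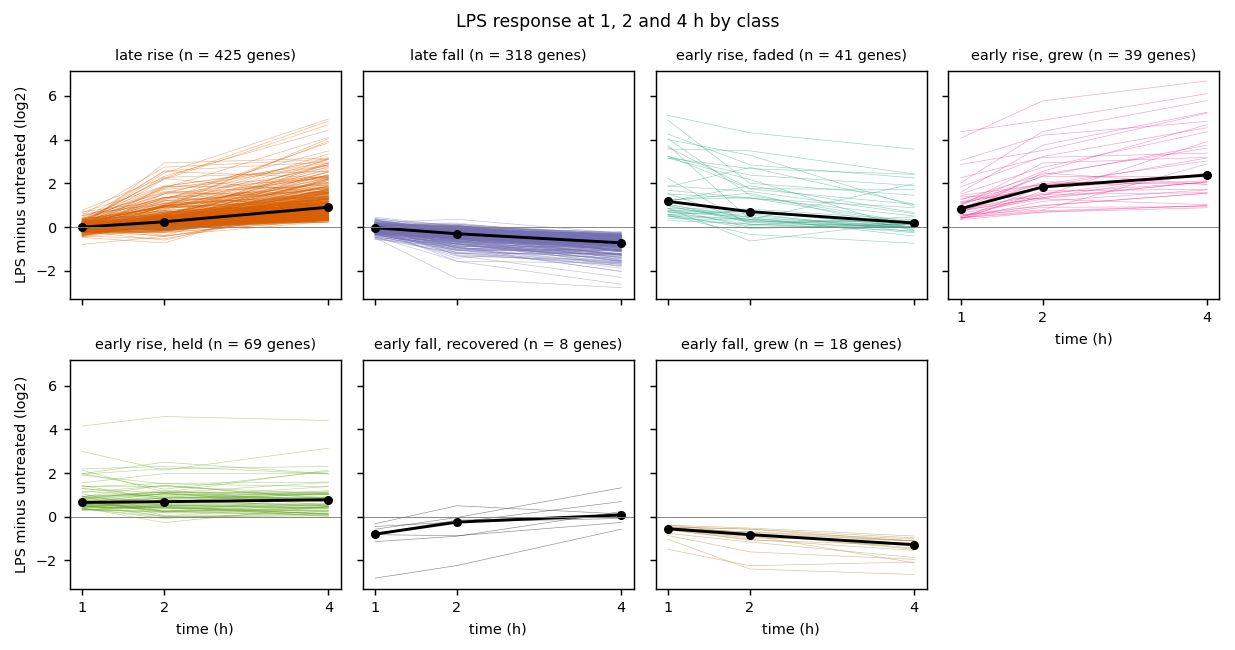
Difference between LPS and untreated cells (y axis, log2) at 1, 2 and 4 h (x axis) in 7 classes, with a thin line for each gene and the class median in black. The classes were defined from the differences at 1 and 4 h and not from those at 2 h: the median of the faded rises was 0.70 at 2 h and that of the late rises 0.24.

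Responses that faded were led by Egr2, Errfi1, Egr3 and Dusp1. Egr2, a zinc-finger transcription factor of the early growth response family, lay at 7.01 and 7.21 on the untreated arrays and at 11.04 and 11.28 on the LPS arrays at 1 h, and at 7.16 and 7.35 against 7.47 and 7.41 at 4 h. The LPS arrays stood far above the untreated arrays at 1 h and just above them at 4 h, and the groups overlapped at neither time. Its response of 4.04 at 1 h was down to 1.46 by 2 h and to 0.18 by 4 h (adjusted p = 0.486), a change of −3.86 (SE 0.241, adjusted p = 3.57e-08, n = 2 arrays per group). Egr3, of the same family, had a response of 3.16 at 1 h and −0.15 at 4 h, which was not called (change −3.30, SE 0.242, adjusted p = 1.79e-07). Egr1 followed another course. Its LPS arrays started at 13.18 and 13.42 after 1 h, fell to 9.71 and 9.61 after 2 h and stood again at 11.52 and 11.42 after 4 h, while untreated arrays read 9.25 and 9.86 early on (1 h) and 9.46 and 9.52 later (4 h). The response was thus 3.74, 0.34 and 1.98 at the 3 times, lowest at 2 h, with a change of −1.76 (adjusted p = 0.000387).

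Errfi1 encodes a feedback inhibitor of the EGF receptor. Its untreated arrays read 8.02 and 8.09 at 1 h and 8.24 and 8.13 at 4 h, and its LPS arrays went from 12.98 and 12.91 to 9.57 and 9.70. The LPS arrays lay above the untreated arrays at both times, by 4.89 at 1 h and 1.45 at 4 h (change −3.44, SE 0.156, adjusted p = 1.02e-09). Dusp1, the phosphatase that inactivates p38 and JNK, read 7.96 and 8.37 untreated and 12.07 and 12.26 with LPS at 1 h, and 7.91 and 8.10 against 8.93 and 8.97 at 4 h. Its response went from 4.00 to 0.95 and was still called at 4 h (change −3.06, SE 0.207, adjusted p = 8.54e-08). Dusp2, a nuclear MAP kinase phosphatase, went from 4.26 to 2.25 (change −2.01, adjusted p = 3.66e-06). Dusp6, which acts on ERK, ran the other way and is described with the early falls.

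Of 17 tested phosphatases, RNA decay factors and SOCS proteins, 9 were higher with LPS after 1 h, and the change was lower for 2, Dusp1 and Dusp2, and higher for 2, Dusp6 and Cish. The median change of the list was −0.09, against −0.04 over all genes. Of all genes tested, 5.54% had a higher and 4.48% a lower change, the shares to set beside the counts of each list. Zfp36, which encodes the mRNA-decay factor tristetraprolin, had responses of 3.52 and 2.998, and Socs3, an inhibitor of JAK signaling, 3.59 and 4.03, and neither change was called. For Zfp36 the response at 2 h was 1.79. Its change was called lower when the untreated arrays were left out or pooled over all times. Both genes are among the rises that were not resolved, so the missing calls do not show that the responses held. These 2 genes, outside the rule for named genes, were picked after their values were seen.

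Of 23 tested immediate-early transcription factors and stress genes, 15 were higher after 1 h of LPS. The change was lower for 9, higher for 1 and not called for 13, with a median of −0.43. With median scaling it was lower for 5 and higher for 0, with a median of −0.99 against −0.40 over all genes. Besides the EGR genes, Fosl2, an AP-1 subunit, went from 2.23 to 0.47 (change −1.77, adjusted p = 6.11e-07) and was at 0.11 at 2 h. Fos itself was not called after 1 h (0.36) and was lower than in untreated cells after 4 h (−0.77, change −1.13, adjusted p = 0.00285). Among 18 genes of the IκB family, A20 and Rel subunits, the change was lower for 3 and higher for 1. The shares over all genes were 4.48% and 5.54%, and with median scaling the list had 1 lower and 0 higher. Nfkbiz, which encodes the nuclear cofactor IκBζ, read 7.34 and 7.60 untreated and 12.60 and 12.57 with LPS at 1 h, and 7.33 and 7.41 against 11.005 and 10.86 at 4 h. It faded in the sense of the class while its response at 4 h was still 3.56 (change −1.55, SE 0.178, adjusted p = 2.19e-05). Tnfaip3, the ubiquitin-editing enzyme A20 that ends NF-κB signaling, went from 3.23 to 1.90 (change −1.33, adjusted p = 0.000375). Map3k8, the kinase Tpl2 upstream of ERK, was the member with the higher change, 1.16 (adjusted p = 7.09e-06).

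Ppp1r15a, which encodes the GADD34 subunit that directs a phosphatase to eIF2α, went from 3.65 to 1.72 (change −1.94, adjusted p = 8.42e-05), and Tnfsf9, the ligand of the costimulatory receptor 4-1BB, from 3.24 to 1.04 (change −2.21, adjusted p = 0.000303). Id3, an inhibitor of basic helix-loop-helix factors, went from 0.94 to −0.26, not called at 4 h (change −1.19, adjusted p = 8.08e-05). Dnajb1, an HSP40 cochaperone, is the gene of this class that was called in opposite directions, 0.54 at 1 h and −0.74 at 4 h (change −1.28, adjusted p = 2.1e-05). The chemokine gene Ccl4 entered the class on another footing. Its LPS arrays read 14.47 and 14.52 at 1 h and 14.34 and 14.47 at 4 h, while the untreated arrays went from 11.14 and 11.52 to 11.94 and 12.04. The LPS arrays lay near the highest normalized signal of an array, 14.71, so that this probe may not show a further rise. The change was −0.75 (adjusted p = 0.0259), while LPS at 4 h minus LPS at 1 h, with no untreated arrays, was −0.09 (adjusted p = 0.742). A dimmer probe of Ccl4 had responses of 4.29 and 4.39 and a change of 0.09, not called. The call was also lost in fits of the 8 arrays or of the LPS and untreated arrays alone, and when LPS 1 h array A or B, untreated 4 h array A or B, untreated 1 h array A or LPS 4 h array A was left out.

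The promoters of 4 faded genes are shown because each holds a match to a motif of immediate-early control, and all were picked after the matches were seen. The sequences are RefSeq promoters of GRCm38.p6, 250 bases before to 50 after a transcription start, in the direction of the gene, with matches in capitals. Egr2 is at chr10:67537619-67537918 (plus strand, the third of 5 starts), Errfi1 at chr4:150854820-150855119 (plus strand, the other of its 2 starts holds no match), Dusp1 at chr17:26508423-26508722 (minus strand) and Ppp1r15a at chr7:45526219-45526518 (minus strand). In Egr2 the capitals mark a CArG box, the element read by serum response factor, and in the other 3 genes the cyclic AMP response element TGACGTCA; Ppp1r15a also has a match to the IRF element GAAANNGAA.
Egr2: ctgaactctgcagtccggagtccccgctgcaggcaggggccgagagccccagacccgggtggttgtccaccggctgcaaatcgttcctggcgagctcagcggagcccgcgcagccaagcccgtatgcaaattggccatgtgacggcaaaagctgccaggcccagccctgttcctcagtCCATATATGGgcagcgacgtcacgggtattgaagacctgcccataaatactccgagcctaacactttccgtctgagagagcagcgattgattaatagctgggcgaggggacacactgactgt
Errfi1: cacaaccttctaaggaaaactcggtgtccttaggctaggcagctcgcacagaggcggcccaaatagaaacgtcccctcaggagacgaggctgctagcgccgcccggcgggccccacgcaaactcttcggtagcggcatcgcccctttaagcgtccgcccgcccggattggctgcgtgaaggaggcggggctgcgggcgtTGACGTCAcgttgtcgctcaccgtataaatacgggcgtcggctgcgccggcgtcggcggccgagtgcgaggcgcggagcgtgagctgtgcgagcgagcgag
Dusp1: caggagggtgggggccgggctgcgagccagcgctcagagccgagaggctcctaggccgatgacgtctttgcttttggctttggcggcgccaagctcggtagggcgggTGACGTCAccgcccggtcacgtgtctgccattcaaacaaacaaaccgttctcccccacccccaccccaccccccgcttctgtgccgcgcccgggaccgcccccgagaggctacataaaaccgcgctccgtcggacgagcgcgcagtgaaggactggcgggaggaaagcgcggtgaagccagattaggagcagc
Ppp1r15a: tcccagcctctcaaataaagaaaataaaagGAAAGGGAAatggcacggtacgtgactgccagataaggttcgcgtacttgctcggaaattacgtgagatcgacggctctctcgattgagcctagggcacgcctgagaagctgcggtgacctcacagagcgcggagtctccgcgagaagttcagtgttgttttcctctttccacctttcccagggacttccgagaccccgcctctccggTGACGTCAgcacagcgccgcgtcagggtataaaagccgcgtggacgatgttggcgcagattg

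Motifs were searched on both strands, and matches could overlap. Of 32 faded genes with a promoter in the table, 5 had TGACGTCA (15.6%) and 3 a CArG box (9.38%), against 3.92% and 1.49% of the 6577 tested genes with a promoter, and 1.79% and 1.63% of all 32851 promoters. The κB consensus was found in 5 (15.6%, against 6.13% of tested genes and 4.51% of all promoters), the AP-1 site TGANTCA in 4 (12.5%, against 6.13% and 7.81%) and the IRF element in 6 (18.8%, against 8.71% and 8.56%). These shares are descriptions over few genes, with 1.53 starts per gene for the faded genes and 1.28 for all tested genes, and a match is not evidence of binding.

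Responses that held were led by Tnf. Tnf, the central inflammatory cytokine of macrophages, read 9.05 and 9.39 untreated and 13.46 and 13.29 with LPS at 1 h, and 8.83 and 9.22 against 13.56 and 13.30 at 4 h. The LPS arrays of both times overlapped, and so did the untreated arrays. The response measured 4.15, 4.59 and 4.41 at the 3 times, and the change was 0.26 (SE 0.28, 95% interval −0.34 to 0.85). Nfkbia, which encodes IκBα, read 10.28 and 10.56 untreated and 12.46 and 12.32 with LPS at 1 h, and 10.06 and 10.26 against 12.23 and 12.002 at 4 h, a response of 1.97 and 1.96 (change −0.01, 95% interval −0.37 to 0.36). Osm, the IL-6 family cytokine oncostatin M, had responses of 2.99 and 3.13, with a dip to 2.14 at 2 h. Hilpda, a lipid droplet protein, had 2.13 at both times and 1.12 at 2 h. Gpr84, a receptor for medium-chain fatty acids, went from 2.19 to 1.95, and Plk2, a polo-like kinase, from 1.97 to 2.07. The neutrophil chemoattractant gene Cxcl2 had a response of 5.45 at 1 h and at least 59.6-fold at 4 h, where the untreated arrays were not well above background; its change of 0.51 was not resolved (SE 0.386). Ccl3, a macrophage chemokine, had responses of 2.80 and 3.18 and was likewise not resolved (change 0.39, SE 0.331); its LPS arrays at 4 h, 14.56 and 14.63, were also near the highest signal.

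**Figure D3:**
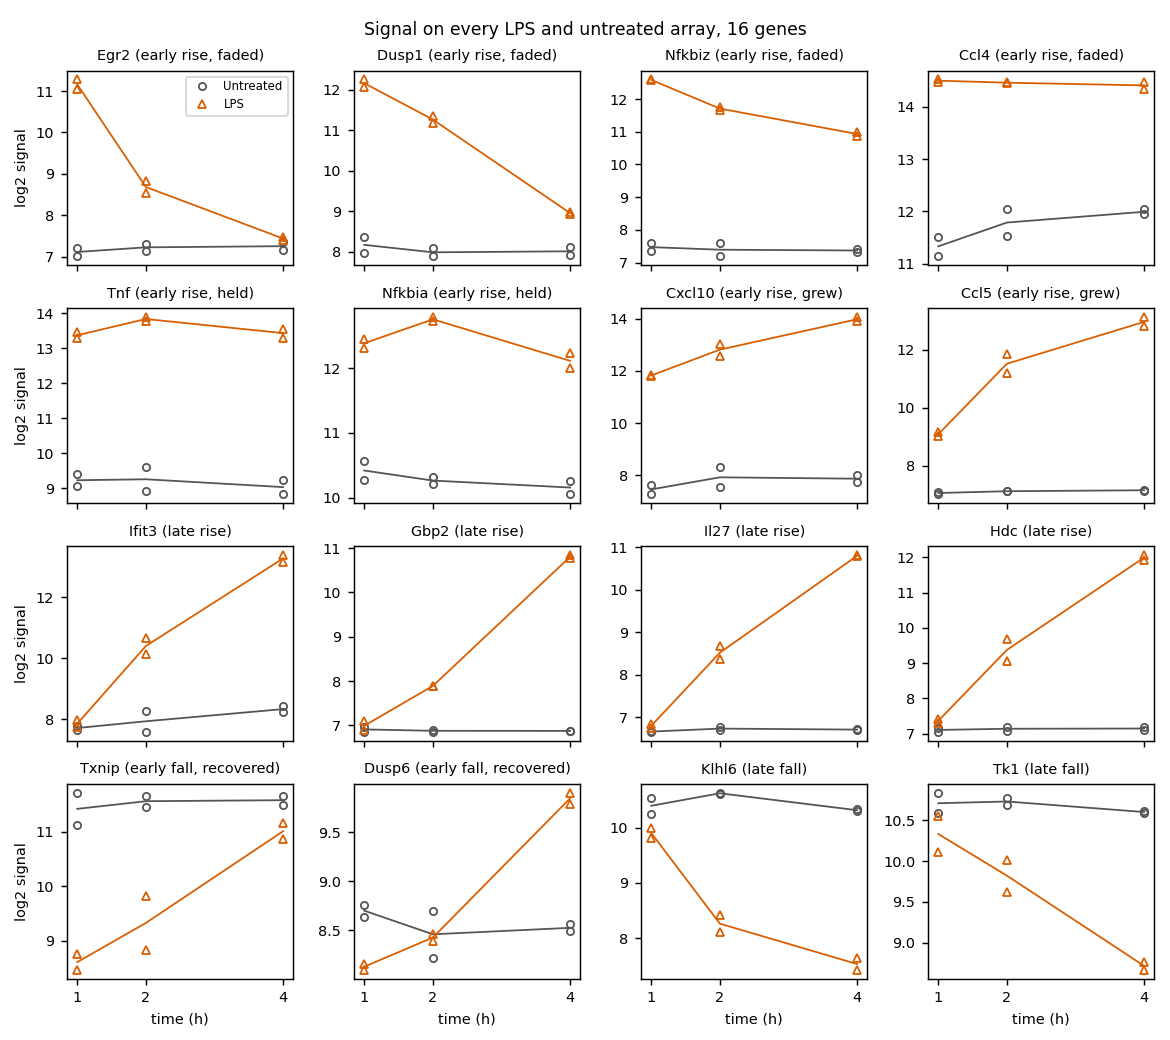
Log2 normalized signal (y axis) on each untreated (circles) and LPS (triangles) array at 1, 2 and 4 h (x axis) for 16 genes, with lines through the means of 2 arrays; each panel has its own y range. Egr2 falls back to near the untreated level, Tnf stays level, Ccl5 and Cxcl10 climb, Ifit3, Gbp2, Il27 and Hdc start from the untreated level at 1 h, and Txnip dips and climbs back towards the untreated level.

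Responses that grew were led by Ccl5, Rsad2 and Ccl2. Ccl5, the chemokine RANTES, read 7.11 and 7.04 untreated and 9.02 and 9.16 with LPS at 1 h, and 7.18 and 7.15 against 13.11 and 12.80 at 4 h. Its response rose from 2.02 to 4.38 at 2 h and 5.79 at 4 h (change 3.77, SE 0.277, adjusted p = 1.87e-07). Ccl2, the monocyte chemoattractant MCP-1, read 6.92 and 7.02 untreated and 8.07 and 7.96 with LPS at 1 h, and 11.44 and 11.64 with LPS at 4 h, where the untreated arrays were not well above background. It was at least 25.2-fold higher than untreated at 4 h (change 3.64, adjusted p = 4.7e-10). Cxcl10, a chemokine that attracts activated T cells, was already high at 1 h, 11.83 and 11.82 with LPS against 7.29 and 7.64, and reached 13.90 and 14.05 against 7.74 and 8.00 at 4 h. Its response went from 4.36 to 6.10 (change 1.74, SE 0.357, adjusted p = 0.00423); a probe of the gene near background showed a change of 0.13. Of 14 chemokine genes tested, the change was higher for 7 and lower for Ccl4 alone, with a median of 0.70.

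Of 22 cytokine and growth factor genes tested, 9 were higher after 1 h and 18 after 4 h, and the change was higher for 14 and lower for 1, Tnfsf9, with a median of 0.98. Il1b, the interleukin-1β transcript, was not well above background on any of the 4 untreated arrays. Its LPS arrays read 11.21 and 10.44 at 1 h and 13.30 and 13.45 at 4 h, at least 15.4-fold and at least 89.9-fold over untreated (change 2.62, adjusted p = 3.95e-06). Il1rn, the receptor antagonist that opposes it, went from 1.25 to 3.61 (change 2.36, adjusted p = 0.000836). Ifnb1, interferon-β, picked after its values were seen, was at least 2.32-fold and at least 4.38-fold over untreated arrays that were not well above background (change 0.89, adjusted p = 0.00955, and 0.0646 in a fit of the 8 arrays alone). Saa3, an acute-phase apolipoprotein, went from 0.84 to 3.75 (change 2.91, adjusted p = 1.98e-06). Acod1, the itaconate-producing enzyme, went from 3.05 to 4.83 (change 1.79, adjusted p = 0.000234).

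Rsad2, which encodes the antiviral enzyme viperin, read 8.31 and 8.48 untreated and 9.81 and 10.17 with LPS at 1 h, and 8.79 and 9.12 against 14.20 and 14.22 at 4 h. Isg15, the ubiquitin-like interferon product, read 8.63 and 9.08 against 10.55 and 10.18 at 1 h, and 9.03 and 9.20 against 13.48 and 13.47 at 4 h. Their changes were 3.66 (SE 0.402, adjusted p = 1.36e-05) and 2.85 (SE 0.353, adjusted p = 4.89e-05). Gbp3, an interferon-induced GTPase, went from 0.46 to 3.91 (change 3.45, adjusted p = 1.7e-09). These 3 were among the 5 of 39 interferon-stimulated genes already higher at 1 h.

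The promoters of 1 gene that held and 2 that grew are shown for comparison, with matches in capitals. Nfkbia (chr12:55492598-55492897, minus strand) has a κB match and an IRF match. Cxcl10 (chr5:92348840-92349139, minus strand) has 2 κB matches, an IRF match and an AP-1 site. Isg15 (chr4:156200769-156201068, minus strand) has 3 overlapping IRF matches in 1 run.
Nfkbia: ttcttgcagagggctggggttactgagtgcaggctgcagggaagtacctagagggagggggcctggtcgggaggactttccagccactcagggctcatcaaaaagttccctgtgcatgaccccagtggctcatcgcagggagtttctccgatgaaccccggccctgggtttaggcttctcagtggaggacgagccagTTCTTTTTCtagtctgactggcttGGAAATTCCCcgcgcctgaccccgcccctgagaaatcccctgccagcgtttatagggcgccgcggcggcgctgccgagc
Cxcl10: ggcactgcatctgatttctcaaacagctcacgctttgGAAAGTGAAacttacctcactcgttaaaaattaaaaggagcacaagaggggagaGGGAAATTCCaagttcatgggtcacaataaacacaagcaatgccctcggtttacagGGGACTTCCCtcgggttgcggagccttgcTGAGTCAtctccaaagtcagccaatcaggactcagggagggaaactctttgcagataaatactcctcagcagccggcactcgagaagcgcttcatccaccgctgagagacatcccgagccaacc
Isg15: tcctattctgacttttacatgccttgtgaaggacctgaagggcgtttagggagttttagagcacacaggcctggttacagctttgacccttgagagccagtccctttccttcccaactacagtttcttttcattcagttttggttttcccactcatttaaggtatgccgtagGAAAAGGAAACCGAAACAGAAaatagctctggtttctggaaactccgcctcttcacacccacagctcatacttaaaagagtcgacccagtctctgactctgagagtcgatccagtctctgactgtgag
Among the 81 genes with a promoter whose early rise held or grew, 16% had a κB consensus, 13.6% an IRF element, 14.8% an AP-1 site, 4.94% TGACGTCA and 1.23% a CArG box. The promoters of Tnf, Acod1 and Il1b in the table held no match to any of the 5 motifs in these 300 bases.

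Responses that started late were led by interferon-stimulated genes. Ifit3, an antiviral protein with tetratricopeptide repeats, read 7.63 and 7.78 untreated and 7.97 and 7.73 with LPS at 1 h, where the groups overlapped, and 8.22 and 8.43 against 13.16 and 13.37 at 4 h. Its response was 0.14, 2.47 and 4.94 at 1, 2 and 4 h (change 4.80, SE 0.341, adjusted p = 1.39e-07), the highest change of the 8622 genes. Ifit2, of the same family, had responses of 0.06, 2.18 and 4.69 (change 4.63, adjusted p = 2.04e-10). Cmpk2, a mitochondrial nucleotide kinase, had 0.15, 2.32 and 4.43 (change 4.27, adjusted p = 1.47e-07). Gbp2, a guanylate-binding GTPase, read 10.84 and 10.77 with LPS at 4 h, at least 15.15-fold over untreated arrays that were not well above background (change 3.85, SE 0.0972, adjusted p = 1.68e-12), and its response at 2 h was 1.01. Gbp2b, a neighboring family member, had responses of 0.22 and 4.04 (change 3.82, adjusted p = 8.39e-12); the probes of closely related Gbp genes may share signal.

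Of 39 interferon-stimulated genes tested, the change was higher for 37 and lower for 0 and not called for 2, Irgm1 (0.68) and Bst2 (1.03). Those values are of the brightest probe, and 2 dimmer probes of Irgm1 gave called changes of 2.34 (adjusted p = 8.46e-07) and 1.23 (adjusted p = 6.02e-05); the gene was also called with the mean of its probes (1.42, adjusted p = 5.24e-06). The median change was 1.92, against −0.04 over all genes, and the median response 0.05 at 1 h, 0.57 at 2 h and 2.06 at 4 h. By class, 32 of the 39 were late rises and 5 were early rises that grew. With median scaling 23 of the 39 were called higher and 0 lower, with a median of 1.54 against −0.40 over all genes.

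Other late rises were outside the interferon list. Hdc, the enzyme that makes histamine, read 7.05 and 7.16 untreated and 7.31 and 7.42 with LPS at 1 h, and 7.09 and 7.20 against 11.92 and 12.06 at 4 h (change 4.59, SE 0.27, adjusted p = 1.96e-08). Il27, the p28 subunit of interleukin-27, was not well above background untreated or after 1 h of LPS, and reached 10.82 and 10.79 at 4 h, at least 15.1-fold over untreated and at least 14.72-fold over LPS at 1 h (change 3.96, adjusted p = 1.48e-10). Edn1, the vasoconstrictor endothelin-1, was below background in the same 3 groups and at least 7.64-fold over untreated at 4 h (change 3.07, adjusted p = 1.29e-09). Ccl7, the chemokine MCP-3, was at least 10.1-fold over untreated at 4 h (change 3.18, adjusted p = 1.23e-09). Nos2, inducible nitric oxide synthase, and Il6 were detected in LPS cells at 4 h and in none of the other 3 groups, at least 1.58-fold and at least 1.44-fold over untreated. Of the 425 late rises, 320 were detected on all 8 arrays, and for 56 the untreated groups and LPS at 1 h were all below background, so that a response of those genes at 1 h could not have been seen below that level.

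Of 22 genes of antigen presentation, costimulation and adhesion, 4 were higher after 1 h and 16 after 4 h, and the change was higher for 13 and lower for 0 (median 0.84). With median scaling it was higher for 7 and lower for 0 (median 0.35). Cd40, a costimulatory receptor, was an early rise that grew, with LPS arrays at 9.11 and 8.81 at 1 h and 11.83 and 11.63 at 4 h against 7.10 to 7.24 on the 4 untreated arrays (change 2.71, SE 0.221, adjusted p = 5.88e-07). Cd274, the checkpoint ligand PD-L1, was late, 0.21 at 1 h and 2.85 at 4 h (change 2.64, adjusted p = 1.23e-07). Cd69, a lectin of early activation, was at least 1.86-fold and at least 8.23-fold over untreated at the 2 times. Among 27 Toll-like receptors, co-receptors, adaptors and kinases, the change was higher for 7 and lower for 0 with a median of 0.18. The shares over all genes were 5.54% and 4.48%. With median scaling the median of this list was −0.22, with 0 called higher and 1 lower. Irak2, a kinase downstream of MyD88, had responses of 0.21 and 1.76 (change 1.54, adjusted p = 2.38e-06), and Ikbke, a kinase that phosphorylates IRF3, 0.39 and 1.71 (change 1.31, adjusted p = 1.95e-06). Tlr4 itself had responses of −0.49 and −0.53 and its co-receptor Cd14 of 0.47 and 0.49, with changes of −0.04 and 0.02. At 2 h Tlr4 was lower still, with a mean of 7.36 with LPS against 8.39 untreated. The LPS arrays of Cd14 at 1 and 4 h, 14.13 to 14.34, lay near the highest signal of an array, 14.71, so that a further rise may not show. Among 12 enzymes of itaconate, nitric oxide, prostaglandin and redox metabolism the change was higher for 6 (median 0.40), and with median scaling for 2 (median −0.01). Gch1, which makes the tetrahydrobiopterin that nitric oxide synthase needs, went from 0.25 to 2.06 (change 1.80, adjusted p = 0.00185).

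The promoters of 2 late genes are shown, both with IRF matches and an AP-1 site in capitals. Ifit3 (chr19:34583279-34583578, plus strand) has 3 IRF matches on the opposite strand, and Gbp2 (chr3:142620413-142620712, plus strand) has 1.
Ifit3: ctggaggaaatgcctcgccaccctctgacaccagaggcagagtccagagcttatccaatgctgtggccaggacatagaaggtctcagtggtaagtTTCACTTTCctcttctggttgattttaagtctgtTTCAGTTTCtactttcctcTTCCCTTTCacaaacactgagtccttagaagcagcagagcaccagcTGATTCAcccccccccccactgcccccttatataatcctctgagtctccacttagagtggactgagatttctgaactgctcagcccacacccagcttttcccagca
Gbp2: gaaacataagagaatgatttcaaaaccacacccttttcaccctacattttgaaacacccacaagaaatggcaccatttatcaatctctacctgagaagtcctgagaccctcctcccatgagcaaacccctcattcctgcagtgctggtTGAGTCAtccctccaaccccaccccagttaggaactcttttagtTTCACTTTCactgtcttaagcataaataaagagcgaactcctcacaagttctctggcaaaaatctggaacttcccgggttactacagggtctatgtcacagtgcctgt
Of 329 late rises with a promoter in the table, 78 had an IRF element (23.7%, against 8.71% of tested genes with a promoter), 8.51% a κB consensus, 10.3% an AP-1 site, 1.82% TGACGTCA and 1.22% a CArG box, with 1.35 starts per gene. The promoters of Ifit2, Cmpk2 and Hdc in the table held no match to the 5 motifs as written.

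**Figure D4:**
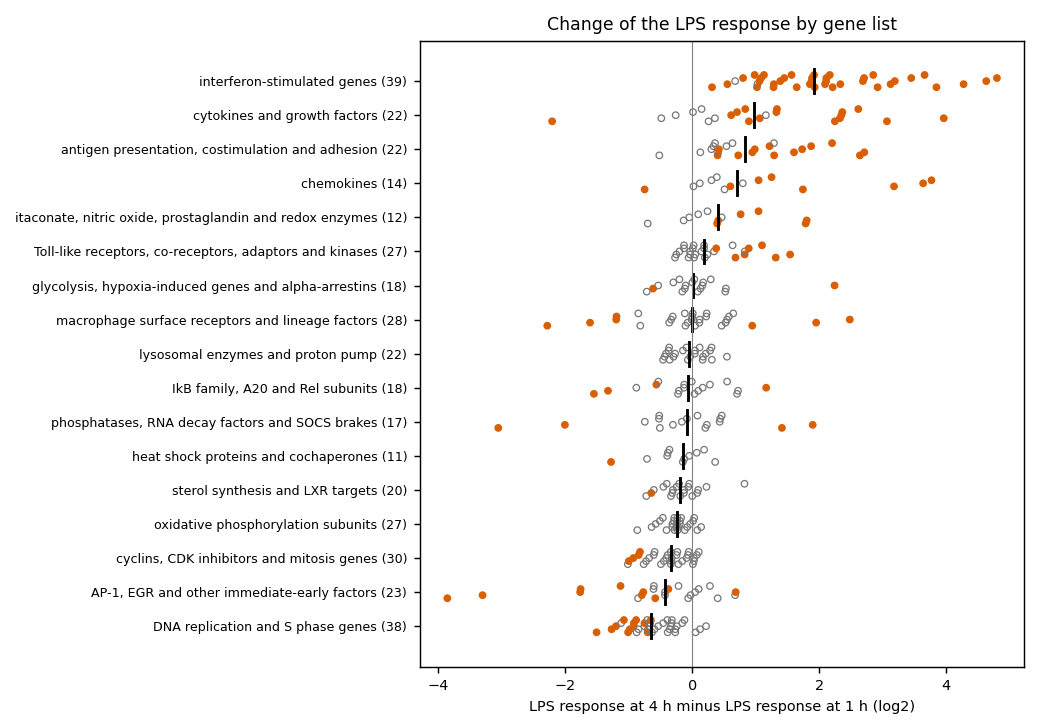
Change of the LPS response from 1 to 4 h (x axis, log2) for the tested members of 17 gene lists, number tested in parentheses, each point a gene, filled where the change was called, with the list median as a bar. Interferon-stimulated genes have the highest median, 1.92, and DNA replication genes the lowest, −0.66.

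Few early falls recovered. Txnip, which encodes the thioredoxin-binding arrestin that restrains glucose uptake, read 11.13 and 11.71 untreated and 8.47 and 8.75 with LPS at 1 h, and 11.66 and 11.50 against 10.86 and 11.15 at 4 h. Its response measured −2.81, −2.23 and −0.57 at the 3 times, no longer called at 4 h (change 2.24, SE 0.452, adjusted p = 0.00385), and another probe gave 2.06. Dusp6 read 8.64 and 8.76 untreated and 8.10 and 8.16 with LPS at 1 h, and 8.49 and 8.56 against 9.79 and 9.90 at 4 h, so that the order of the groups turned over. Its response was −0.57 at 1 h and 1.32 at 4 h, called at both times (change 1.90, SE 0.169, adjusted p = 1.54e-06). Nrros, a regulator of reactive oxygen species and of latent TGF-β in myeloid cells, also turned over, from −0.82 to 0.69 (change 1.52, adjusted p = 7.91e-07). Hhex, a homeobox repressor, went from −1.14 to 0.24, not called at 4 h (change 1.38, adjusted p = 5.42e-06).

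Early falls that grew were led by Gpr183, the oxysterol receptor EBI2, at 9.98 and 9.86 untreated against 8.74 and 9.05 with LPS at 1 h, and 10.42 and 10.34 against 7.75 and 7.73 at 4 h (change −1.61, SE 0.161, adjusted p = 5.16e-06). Ung, a uracil-DNA glycosylase, went from −0.50 to −2.11 (change −1.60, adjusted p = 1.07e-05), and Clspn, a checkpoint adaptor at replication forks, from −0.36 to −1.49 (change −1.12, adjusted p = 2.05e-06). Falls that held were smaller, with a median response of −0.49 at 1 h and −0.44 at 4 h over the 92 genes. At 4 h 72 of them were still called lower and 20 were not called. The median fall was smaller than the margin of 1 log2 unit, so a small fall that recovered could still be placed here. Pla2g15, a lysosomal phospholipase, had −0.86 and −1.24, and Map3k14, the NF-κB-inducing kinase, −0.87 and −0.44.

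The late falls were led by Angpt2, Fam13c and Klhl6. Angpt2, the vessel-destabilizing ligand angiopoietin-2, read 9.44 and 9.98 untreated and 9.69 and 9.55 with LPS at 1 h, and 9.81 and 10.06 against 7.21 and 7.42 at 4 h (change −2.53, SE 0.42, adjusted p = 0.000794). Klhl6, an adaptor of a ubiquitin ligase, read 10.25 and 10.54 against 9.82 and 9.98 at 1 h, and 10.33 and 10.29 against 7.43 and 7.64 at 4 h, a response of −0.49, −2.35 and −2.78 at the 3 times (change −2.29, adjusted p = 1.26e-05). Fam13c fell by at least 4.87-fold at 4 h, when LPS arrays were not well above background (change −2.44, adjusted p = 6.11e-07). Tgfbr1, the type I receptor of TGF-β, had responses of −0.11 and −2.04 (change −1.93, adjusted p = 3.66e-06), and Jade1, a subunit of a histone acetyltransferase, −0.25 and −2.02 (change −1.77, adjusted p = 2.49e-05).

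Of 38 DNA replication and S phase genes, 0 were called at 1 h, 26 were lower at 4 h (16% of all genes were), and the change was lower for 12, higher for 0 and not called for 26, with a median of −0.66. Tk1, thymidine kinase, read 10.83 and 10.58 untreated and 10.55 and 10.11 with LPS at 1 h, and 10.62 and 10.58 against 8.67 and 8.76 at 4 h (change −1.51, SE 0.285, adjusted p = 0.0024). Cdc6, which loads the replicative helicase, had a change of −1.20 (adjusted p = 0.000173), Uhrf1, which guides maintenance DNA methylation, of −1.27 (adjusted p = 0.0055, and 0.0572 in a fit of the 8 arrays alone), and E2f1, the transcription factor of the G1 to S transition, of −1.08 (adjusted p = 0.00099). Of 30 cyclin and mitosis genes, 17 were lower at 4 h, the change was lower for 4 and its median −0.34. The change was lower for 4.48% of all genes. With median scaling the change was lower for 9 of the 38 and 3 of the 30. Oxidative phosphorylation subunits had a median change of −0.24 and lysosomal genes of −0.05, and limma called 0 of the 27 and 0 of the 22. Without adjustment 3 and 2 of them had a p under 0.05, and median scaling called 1 lower in each list.

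Among 28 macrophage surface receptors and lineage factors the change was higher for 3 and lower for 4 (median 0.0027), against 5.54% and 4.48% of all genes, and with median scaling higher for 1 and lower for 4. The higher ones were Fpr2, a formyl peptide receptor, at least 4.93-fold over untreated at 4 h, Fcgr1, the high-affinity IgG receptor, from −0.47 to 1.48 (change 1.95, adjusted p = 0.000287), and Id1, with a change of 0.94. Fcgr1 is itself a macrophage marker. The lower ones were Klhl6, Gpr183, Id3 and Mef2c. Sterol synthesis, heat shock, and glycolysis with α-arrestin genes had 1 gene lower each, of 20, 11 and 18, and the glycolysis list 1 higher, Txnip, with medians of −0.20, −0.15 and 0.02. With median scaling the medians of the macrophage receptor and glycolysis lists were −0.24 and −0.26.

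Whether the change from 1 to 4 h differed between ligands was tested as LPS change minus P3C or R848 change, in which the untreated arrays cancel. Both comparisons use the same LPS arrays, so they are given side by side. The LPS change was higher than the P3C change for 181 genes (2.1%) and lower for 34 (0.394%), and higher than the R848 change for 152 (1.76%) and lower for 25 (0.29%). Of the 478 genes with a higher LPS change, 179 exceeded the P3C change and 148 the R848 change, and of the 386 with a lower one, 26 and 20 fell below. The calls of the LPS change and of these differences share the LPS arrays at 1 and 4 h, so that such an overlap is partly built in. The median change over all genes was −0.04 with LPS, −0.01 with P3C and −0.01 with R848. The 215 genes in all against P3C became 136 without P3C 4 h array A and 138 without P3C 1 h array B. With median scaling 48 genes differed from P3C and 44 from R848, and 788 and 534 did when slides were modelled as a random block. Unlike LPS and untreated arrays of the same time, LPS and P3C arrays shared slides at 1 h and, for array B, at 4 h. LPS and R848 arrays shared them for array A at 1 h and array B at 4 h.

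The genes that grew further with LPS were guanylate-binding proteins, Ccl5, Il27 and other late genes. Gbp2 had a change of 3.85 with LPS, 0.64 with P3C and 0.72 with R848, a difference of 3.21 from P3C (SE 0.0972, adjusted p = 2.39e-11) and 3.13 from R848 (adjusted p = 3.48e-11). For Ccl5 the changes were 3.77, 0.50 and 0.85 (difference 3.27 from P3C, adjusted p = 3.02e-06, and 2.92 from R848, adjusted p = 1.12e-05). For Il27 they were 3.96, 1.03 and 1.09 (adjusted p = 8.23e-09 and 1.18e-08), and for Ifit3 4.80, 1.94 and 2.58, where the difference from P3C was 2.86 (adjusted p = 9.96e-05). Of the 39 interferon-stimulated genes, the LPS change exceeded the P3C change for 23 and the R848 change for 19 and fell below either for 0, and the median changes were 1.92, 0.77 and 0.78. Hdc grew by 2.01 with R848 against 4.59 with LPS (difference 2.58, adjusted p = 3.15e-05).

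For other genes the LPS change was the lower one. Egr2 fell back further with LPS, −3.86 against −2.52 with P3C (adjusted p = 0.00452) and −2.83 with R848 (adjusted p = 0.04), from 4.04 at 1 h against 3.05 and 3.35, while all 3 ligands ended between 0.18 and 0.53 at 4 h. Ppp1r15a changed by −1.94 with LPS and −0.63 with P3C, from 3.65 and 1.81 at 1 h (adjusted p of the difference 0.00824). Tnf held with LPS, 4.15 then 4.41, but went from 3.01 to 4.57 with P3C, a change of 1.56 (difference −1.31, SE 0.28, adjusted p = 0.0173). Nfkbia likewise held with LPS and went from 0.98 to 2.11 with P3C (difference −1.14, adjusted p = 0.000835). Fos had changes of opposite sign, −1.13 with LPS, 0.65 with P3C and 0.44 with R848 (difference −1.78 from P3C, SE 0.219, adjusted p = 0.000121, and −1.57 from R848, adjusted p = 0.000515). Among late falls, Tgfbr1 changed by −1.93 with LPS and −0.88 with R848 (adjusted p = 0.00474), and Jade1 by −1.77 with LPS against −0.62 (P3C, adjusted p = 0.00437) and −0.76 (R848, adjusted p = 0.0133).

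**Figure D5:**
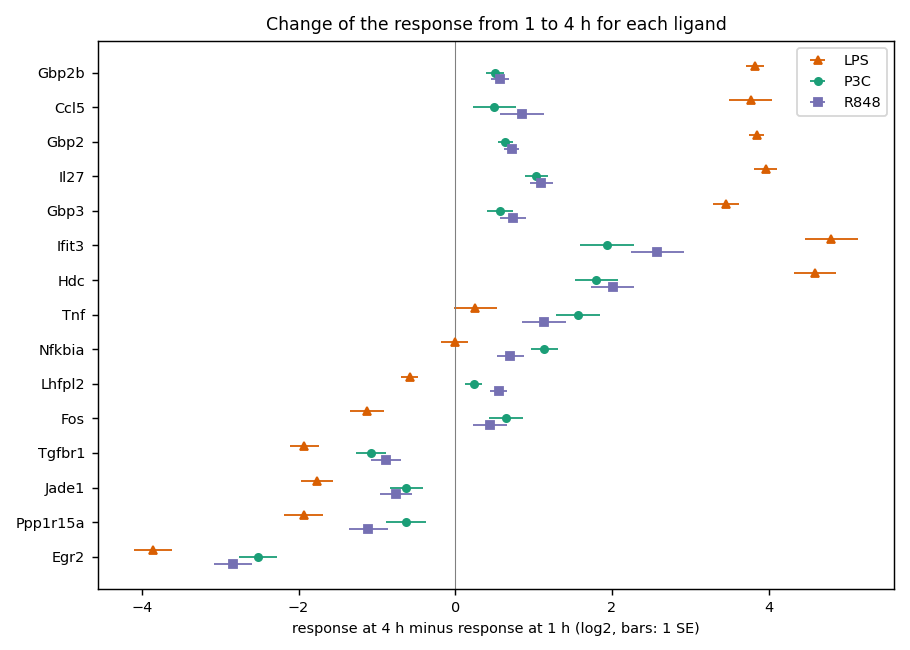
Change of the response from 1 to 4 h (x axis, log2) with LPS (triangles), P3C (circles) and R848 (squares) for 15 genes, with bars of 1 SE and 2 arrays per group. The LPS changes of Gbp2b, Ccl5, Gbp2, Il27 and Gbp3 are all above 3, while the changes with P3C and R848 are 1.09 or less for these 5 genes.

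Of the other genes that the study singles out, Stat3, a transcription factor of cytokine signaling, and Cd44, a hyaluronan receptor, were late rises with changes of 1.51 (adjusted p = 0.00674) and 1.22 (adjusted p = 0.00312). A dimmer probe of Cd44 gave 1.20, while its probes near background gave 0.24, 0.14 and 0.06, not called. Ccl9, a macrophage chemokine, grew from 0.80 to 2.04 (change 1.25, adjusted p = 0.00914), with an adjusted p of 0.05 without LPS 1 h array B and 0.052 without untreated 1 h array A. The complement gene C3 had a change of 0.68 (adjusted p = 0.0319), and its adjusted p lay between 0.0551 and 0.126 when any array but untreated 1 h array A was left out. Sod2, mitochondrial superoxide dismutase, was placed with the rises that held, at 0.42 and 0.88 with a change of 0.46 (adjusted p = 0.0521). That change was called higher under 5 of 22 alternatives, among them the array letter as a replicate block (adjusted p = 0.0429) and LPS at 4 h minus LPS at 1 h (0.60, adjusted p = 0.000447). Marcksl1 was not resolved, 2.10 and 2.63. The changes of Lyz2, Ly86 and Cd81 were 0.11, −0.13 and −0.38 and were not called. The Lyz2 signals at 1 and 4 h, 13.97 to 14.43, lay near the highest signal of an array, 14.71, so that a rise may not show. Dimmer probes of Lyz2 gave −1.05 and −0.36, also not called. Cd81 was called lower with LPS at 4 h, with means of 9.30 against 9.95 untreated.

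Among the genes named, the calls of Acod1, C3, Ccl9, Cd44, Cish, Cxcl10, Dusp6, E2f1, Fcgr1, Fos, Hhex, Id1, Id3, Ifnb1, Ikbke, Irak2, Lhfpl2, Map3k8, Nrros, Stat3, Tk1 and Tnfaip3 ended with median scaling, with no called sign reversed. For the falls among them the change itself was further from 0 and its adjusted p higher, −1.69 for E2f1 (adjusted p = 0.106), −1.73 for Fos (0.0831), −1.57 for Id3 (0.0677), −1.14 for Lhfpl2 (0.148), −2.19 for Tk1 (0.0818) and −1.85 for Tnfaip3 (0.0537). Genes near background moved most with a normexp background correction estimated from the detection p, to 6.09 for Il27, 5.25 for Edn1, 4.65 for Fpr2, 2.08 for Nos2, 2.03 for Il6 and −4.19 for Fam13c, and the call of Cxcl10 ended (1.41, adjusted p = 0.0817). Averaging all detected probes of a gene gave smaller changes, −1.59 for Egr3, −1.001 for Fosl2, 0.94 for Cxcl10, 1.59 for Cd40, 0.57 for Cd44, 2.43 for Gbp2, −1.07 for Tgfbr1, −0.73 for Tk1 and −0.60 for Ung, each still called.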

How the data were processed

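RNA of RAW264.7 cells was hybridized by the authors to Illumina mouse BeadChip arrays and read with GenomeStudio 2011.1. The authors deposited for each probe a non-normalized intensity and a detection p-value, and separately a table of normalized log2 values, which was used as an alternative. The intensities of all 24 arrays were quantile-normalized and taken to log2 without background correction. A probe was retained if, in 1 or more of the 12 groups, the 2 arrays each detected it (p below 0.01), which left 14119 of 45281 probes. Names came from the platform annotation, updated through RefSeq (16512 probes by gene ID, 1422 by accession, 2035 kept as given), 3968 probes of the table were unnamed here, and each of 8622 genes was given by its probe with the highest mean (2810 had several). A model of 12 group means was fitted in limma 3.58.1 under R 4.3.3 with eBayes, 12 residual degrees of freedom and Benjamini-Hochberg adjustment over all genes, and all tests were two-sided. The script was tested on simulated data. Levels bounded as "at least" take, for a group not well above background on either array, the higher of its own signal and the lowest signal among detected probes of each array. With 2 arrays per group the number of arrays limits precision.

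Named genes were those the study names, up to 6 of each class by size of change (by the difference at 1 h for held classes), up to 4 called members per list and direction, and up to 6 per direction against P3C and R848; exceptions are given as picked after their values were seen. Members, lists and tests were chosen with earlier results of these data known. The array letters A and B were not used as pairs in the main model. Correlations of A minus B between groups exceeded 0.1 for 38 of 66 pairs of the 12 groups (median 0.223). In the contrast 2 of 6 did. These values do not settle whether the letters mark shared series. In the sample titles the numbers of all A arrays come before those of all B arrays, but what the numbers count is not stated. The letter as a replicate block was 1 of the alternatives. Other normalizations, detection filters, probe rules, sets of arrays, the slide and each array left out were tried as alternatives. Slide as a fixed term could not be fitted, since the slide and group terms could not all be separated in 1 model. Figures were drawn with matplotlib 3.10.9.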

Additional observations from a re-analysis of the deposited data

Results flagged for a closer look

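The change from 1 to 4 h differed between LPS and P3C for 215 genes and between LPS and R848 for 177, by a test of the difference itself. For 4 named genes the LPS change had the opposite sign to both other ligands, although that of Nfkbia was near 0 and not called, and the changes of Ifnb1 with P3C and R848 were near 0. Fos changed by −1.13 with LPS, 0.65 with P3C and 0.44 with R848, a difference from P3C of −1.78 (adjusted p = 0.000121). With P3C and R848 its mean signal was below untreated at 1 and 4 h, so these changes were not rises over untreated cells. Nfkbia changed by −0.01, 1.13 and 0.70, a difference of −1.14 (adjusted p = 0.000835). Lhfpl2, a tetraspan-family membrane protein, changed by −0.58, 0.23 and 0.55, a difference of −0.82 (adjusted p = 0.000269), and the call of its LPS change ended with median scaling. It too stayed below untreated with P3C and R848, at 9.02 and 8.71 against 10.18 at 1 h and at 8.87 and 8.88 against 9.80 at 4 h. Ifnb1 changed by 0.89, −0.10 and −0.07, a difference of 0.99 (adjusted p = 0.0131); its signal was detected on 0 of 2 arrays with P3C at 4 h and on 1 of 2 with P3C at 1 h and with R848 at each time, so that no opposite course is shown for it.

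Another 3 genes were called in opposite directions at 1 and 4 h of LPS, and the difference between the times was itself called. Dnajb1 went from 0.54 to −0.74 (change −1.28), Dusp6 from −0.57 to 1.32 (change 1.90) and Nrros from −0.82 to 0.69 (change 1.52).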

How the results depend on the processing

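No called change of a named gene changed sign under an alternative, but the balance of higher and lower genes did. With median scaling, genes with a higher response at 4 h numbered 117 and lower 262, the list medians of Toll-like receptor genes and of redox enzymes went from 0.18 to −0.22 and from 0.40 to −0.01, and there were 23 faded rises, 18 held rises, 10 rises that grew, 106 late rises and 1 recovered fall, with 48 genes differing from P3C and 44 from R848. With normexp background correction 42 rises held, and in a fit of LPS and untreated arrays alone 5 falls recovered. With the slide as a random block (consensus correlation 0.602) 788 genes differed from P3C and 534 from R848. LPS at 4 h minus LPS at 1 h, with no untreated arrays, gave 762 higher and 871 lower genes, 647 late falls and 20 recovered falls. Pooling the untreated arrays of all times gave 779 higher, 911 lower, 80 faded, 114 held, 71 grown, 713 late falls and 44 recovered. The cause of these shifts was not tested. Leaving out 1 array at a time gave 358 to 419 higher and 263 to 366 lower genes, 31 to 43 faded, 41 to 67 held, 18 to 34 grown, 319 to 380 late rises, 210 to 297 late falls and 4 to 8 recovered, with 136 to 210 genes differing from P3C and 118 to 156 from R848. Leaving out P3C and R848 arrays was added after seeing the data. With the array letter as a replicate block there were 512 higher, 449 lower, 46 faded, 74 held, 46 grown, 447 late rises, 369 late falls and 10 recovered genes, and 245 and 198 differed from P3C and R848; the letters are not stated to pair samples.

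Each value rests on 2 arrays per group, and for 56 of 425 late rises both untreated groups and LPS at 1 h were below background. No slide held the contrast, so its part in the changes was not tested within slides. Classes depend on the threshold, and 32 early rises had intervals too wide to place.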
